A study of Homo sapiens with 12 samples.

Results

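The heat shock proteins described here are 10 of the 23368 genes in the count table, namely HSPA8, HSPA1A, HSPA1B, HSPA4L, HSPH1, DNAJB1, BAG3, HSP90AA1, HSPB1 and HSPE1. They were chosen by name as chaperones, and HSPA8 also because its level was higher in 2 of the 3 libraries of T47D cells with IKVAV than in the other T47D libraries. The comparison of GFOGER with IKVAV in T47D cells was therefore used in the choice, and its values are given as a description with no test. All 10 genes passed edgeR's filter on low counts in each comparison. The list was named for chaperones of the cytosol, but HSPE1 encodes a chaperone cofactor of the mitochondrial matrix.

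MDA-MB-231 and T47D, established lines of human breast adenocarcinoma from pleural effusions, were encapsulated as single cells in hydrogels of poly(ethylene glycol) with a peptide crosslinker that cells can degrade. MDA-MB-231 is ER- and T47D is ER+. The matrices carried GFOGER, a collagen mimic, or IKVAV, a laminin mimic, and RNA was collected on day 3 after collagenase had degraded the gels for 20 min at 37 °C, a step that all groups shared. Each replicate was RNA pooled from 3 gels, and poly(A) RNA was sequenced with a stranded kit. There were 3 libraries for MDA-MB-231 with GFOGER, 2 for MDA-MB-231 with IKVAV, 3 for T47D with GFOGER and 3 for T47D with IKVAV, and replicate 3 of MDA-MB-231 with IKVAV was not analysed here. The labels do not say whether replicates came from separate cultures, so p-values measure only the spread between these libraries.

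The reads on genes ranged from 14338238 to 18452145 among the libraries. Levels are given in cpm, reads of a gene relative to the library total and scaled between libraries by TMM, and 3 counts in the smallest library equal 0.209 cpm, a limit that covers counting error only. The deposited RPKM values imply library totals that fall into a high set of 6 libraries, 19898878 to 22840524, and a low set of 5 libraries, 5191201 to 5774966. The high set holds every MDA-MB-231 library with GFOGER, MDA-MB-231 IKVAV replicate 2 and T47D IKVAV replicates 1 and 2. The low set holds MDA-MB-231 IKVAV replicate 1, every T47D library with GFOGER and T47D IKVAV replicate 3 (no source used here says where the totals come from). With GFOGER, the 6 luminal epithelial markers were lower and the 6 mesenchymal markers were higher in MDA-MB-231 than in T47D, past the test in each case. Of 6 markers of other cell types, PTPRC of leukocytes reached at most 10 counts in a library and CDH5 of endothelium at most 1. In MDA-MB-231 the highest counts were 8114 for CD68, 284 for COL1A1, 237 for PECAM1, also an endothelial marker, and 230 for PDGFRB, and in T47D they were 55, 1045, 0 and 1.

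Chaperones of the HSP70 family bind exposed hydrophobic stretches of unfolded proteins and release them in a cycle driven by ATP. J-domain proteins such as DNAJB1 bring in the client and stimulate ATP hydrolysis, and nucleotide exchange factors such as HSPH1, HSPA4L and BAG3 reopen the cycle. HSP90 matures kinases and steroid hormone receptors, and small heat shock proteins hold unfolded proteins without ATP. The heat shock factor HSF1 binds inverted repeats of GAA in the promoters of many of these genes when unfolded proteins accumulate, while HSPA8 is also abundant in unstressed cells.

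Promoter sequence is shown for the 4 genes that were higher in both high-set T47D libraries (HSPA8, HSPA1A, HSPA1B and DNAJB1) and, for contrast, for HSP90AA1 and HSPB1, which were not. The sequences are those of RefSeq, which held a window from 250 bases before to 50 bases after the start for all 10 genes, with coordinates of GRCh38.p14. Each printed stretch ends at the base before the start and runs 5′ to 3′ on the strand of the gene. Capitals mark matches to the pair of adjacent repeats GAANNTTC or TTCNNGAA, or to a run of 3 repeats, GAANNTTCNNGAA or TTCNNGAANNTTC, which covers both strands and contains the shorter pattern.
HSPA8, chr11:123062137-123062386, minus strand: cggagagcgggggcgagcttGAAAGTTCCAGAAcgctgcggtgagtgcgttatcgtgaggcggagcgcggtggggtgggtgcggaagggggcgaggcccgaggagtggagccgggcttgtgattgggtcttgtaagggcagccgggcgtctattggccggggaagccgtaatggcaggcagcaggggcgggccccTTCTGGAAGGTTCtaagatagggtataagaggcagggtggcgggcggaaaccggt
HSPA1A, chr6:31815423-31815542, plus strand: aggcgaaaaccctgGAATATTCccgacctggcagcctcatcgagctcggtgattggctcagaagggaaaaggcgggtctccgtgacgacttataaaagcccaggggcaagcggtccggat
HSPA1B, chr6:31827618-31827737, plus strand: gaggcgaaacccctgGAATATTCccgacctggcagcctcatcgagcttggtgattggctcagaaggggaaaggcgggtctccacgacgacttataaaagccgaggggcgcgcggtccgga
DNAJB1, chr19:14518398-14518497, minus strand: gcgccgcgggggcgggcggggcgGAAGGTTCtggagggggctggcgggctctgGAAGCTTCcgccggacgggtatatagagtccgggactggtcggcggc
HSP90AA1, chr14:102087045-102087144, minus strand: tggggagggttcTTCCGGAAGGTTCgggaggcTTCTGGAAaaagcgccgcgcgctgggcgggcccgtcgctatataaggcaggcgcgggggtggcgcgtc
HSPB1, chr7:76302473-76302672, plus strand: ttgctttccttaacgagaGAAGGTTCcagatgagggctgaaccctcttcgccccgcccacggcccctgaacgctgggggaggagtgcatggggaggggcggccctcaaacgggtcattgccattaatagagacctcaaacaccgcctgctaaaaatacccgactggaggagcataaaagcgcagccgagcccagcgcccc

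The run of 3 repeats was found in 2 of the 10 genes, HSPA8 and HSP90AA1, and in 0.608% of the 27305 genes with a window. HSPA8 held 2 such runs, from 230 to 218 and from 55 to 43 bases before the start, and HSP90AA1 held 1, from 88 to 76 bases before the start. The shorter pattern was found in 7 of the 10, namely HSPA8, HSPA1A, HSPA1B, DNAJB1, HSP90AA1, HSPB1 and HSPA4L, and in 16.2% of all genes. These letters are not in the windows of HSPH1, BAG3 and HSPE1. The 120 bases before the starts of HSPA1A and HSPA1B were identical at 111 of 121 aligned columns (91.7%), and each held the same 8 letters, GAATATTC.

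HSPA1A and HSPA1B encode near-identical HSP70 proteins that are induced by heat, and they lie close together on chromosome 6 of hg19, at 31783291 to 31785719 and 31795512 to 31798031. Reads that fit both copies can be split or dropped in counting, so the level of each copy is uncertain, and their summed level is given too. Of the other HSP70 and HSP110 genes, HSPA8 lies on chromosome 11 at 122928200 to 122932901, HSPA4L on chromosome 4 at 128703453 to 128754526 and HSPH1 on chromosome 13 at 31710763 to 31736117. DNAJB1 lies on chromosome 19 at 14625582 to 14629201, BAG3 on chromosome 10 at 121410882 to 121437329, HSP90AA1 on chromosome 14 at 102547075 to 102606086 and HSPB1 on chromosome 7 at 75931875 to 75933614. HSPE1 lies on chromosome 2 at 198364721 to 198368187 and had only 26 to 62 counts per library. The readthrough gene HSPE1-MOB4 covers the whole span of HSPE1, and HSPD1, which encodes the mitochondrial chaperonin that HSPE1 caps, overlaps its start with up to 5406 counts. HSPE1 counts can therefore miss reads that were ambiguous between genes, and its values are the least certain of the 10. HSP90AA1 has a pseudogene copy, HSP90AA4P, which was counted on its own with 314 to 816 reads against 14998 to 37953 for HSP90AA1.

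Levels per kb of gene length spanned more than 2 orders of magnitude among the 10 genes. The low end was HSPE1, whose counts can miss reads that were ambiguous between genes. In MDA-MB-231 with GFOGER, HSPA8 was highest at a mean of 814 cpm per kb, HSP90AA1 followed at 333 and HSPB1 at 108, and the libraries of these 3 genes did not overlap. DNAJB1 at 90.7, HSPH1 at 69.5 and BAG3 at 66.0 cpm per kb came next, where HSPH1 and BAG3 overlapped. HSPA1B at 29.5, HSPA4L at 20.4 and HSPA1A at 12.7 cpm per kb followed with no overlap between neighbours, and HSPE1 was lowest at 3.07. In T47D with GFOGER, HSPB1 at 820 and HSPA8 at 784 cpm per kb overlapped at the top of the order. HSP90AA1 followed at 488 cpm per kb, and DNAJB1, next in order, was at 40.4. In MDA-MB-231 with IKVAV the first 3 genes were again HSPA8 at 895, HSP90AA1 at 244 and HSPB1 at 111 cpm per kb. In T47D with IKVAV the mean order opened with HSPA8 at 1436, HSPB1 at 761 and HSP90AA1 at 476 cpm per kb, and from DNAJB1 to HSPA4L every neighbour overlapped with the next.

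**Figure D1:**
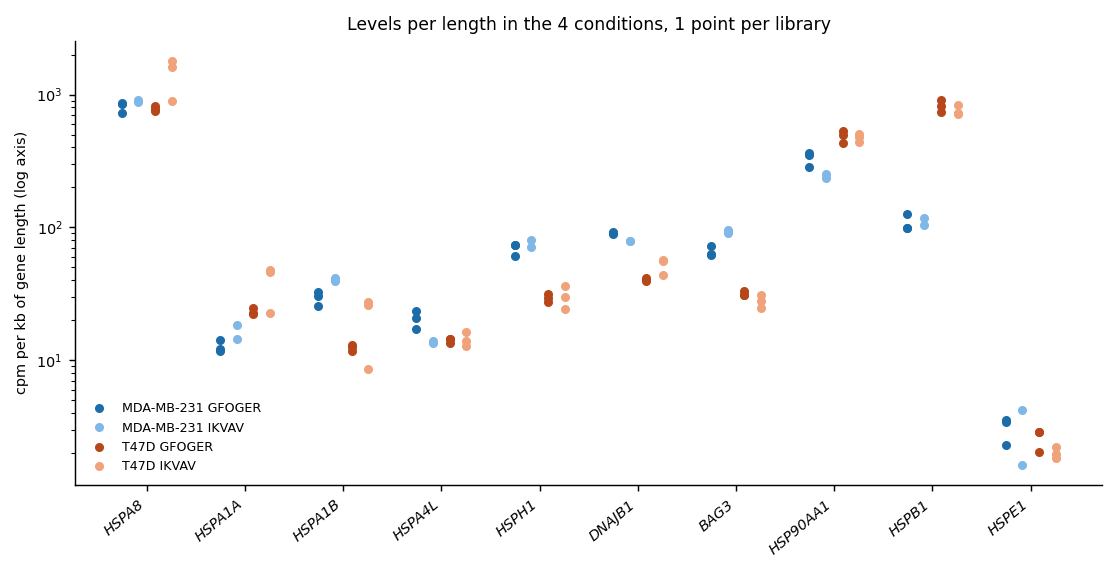
Levels of the 10 genes in cpm per kb of gene length on a log axis, with 1 point per library and a colour for each of the 4 conditions. HSPA8 and HSP90AA1 were among the first 3 genes in every condition, and HSPB1 stood at 98.8 to 126 cpm per kb in MDA-MB-231 and at 718 to 904 in T47D.

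In T47D cells the libraries with IKVAV were split for HSPA8, the constitutive HSP70 of the cytosol. HSPA8 was at 1815, 1737 and 1903 cpm with GFOGER and at 3748, 4155 and 2084 cpm with IKVAV. Each library with IKVAV was above each with GFOGER, but replicate 3 lay much nearer to GFOGER than to replicates 1 and 2. The mean of IKVAV replicates 1 and 2 was 2.17 times the GFOGER mean, and replicate 3 was 1.15 times that mean. The fitted log2 fold change of GFOGER relative to IKVAV was -0.89 (SE 0.262), the 101st lowest of 13642 genes fitted in T47D cells. Among all genes fitted, 0.11% passed an adjusted p of 0.05, and nothing is read from it for genes chosen on this contrast.

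The heat-inducible HSP70 genes were split in the same way. HSPA1A was at 54.6, 59.9 and 54.5 cpm with GFOGER and at 115, 113 and 54.8 cpm with IKVAV. HSPA1B was at 31.6, 32.6 and 29.6 cpm with GFOGER and at 66.2, 69.4 and 21.7 cpm with IKVAV. For both genes IKVAV replicates 1 and 2 stood above every other T47D library, while replicate 3 was within the GFOGER range for HSPA1A and below it for HSPA1B. The mean of replicates 1 and 2 was 2.02 times the GFOGER mean for HSPA1A and 2.17 times for HSPA1B, and the ratios for replicate 3 were 0.972 and 0.693. The summed level of the 2 copies was 86.3, 92.5 and 84.0 cpm with GFOGER and 182, 182 and 76.5 cpm with IKVAV. The fitted log2 fold changes were -0.76 (SE 0.295) for HSPA1A and -0.77 (SE 0.456) for HSPA1B, and -0.77 (SE 0.357) with both copies counted as 1 gene.

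DNAJB1, the J-domain partner of HSP70, was at 87.5, 93.2 and 89.7 cpm with GFOGER and at 126, 128 and 97.6 cpm with IKVAV. Its libraries did not overlap either, and replicate 3 was again the nearest to GFOGER, with a ratio of 1.08 against 1.41 for replicates 1 and 2. The fitted log2 fold change was -0.40 (SE 0.105). HSPA8 and DNAJB1 were the members whose T47D libraries did not overlap between the peptides, both lower with GFOGER, which 6.64% of all genes fitted were.

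The remaining 6 genes were not arranged this way. HSPH1, an HSP110 exchange factor, was at 108, 100.4 and 115 cpm with GFOGER and at 110, 132 and 89.3 cpm with IKVAV. HSPA4L, another member of the HSP110 family, was at 42.0 to 53.0 cpm over all 6 libraries, and HSP90AA1, the inducible cytosolic HSP90, was at 1761 to 2169.5 cpm. The libraries of these 3 genes overlapped between the peptides and between the sets of RPKM totals. BAG3, an exchange factor that links HSP70 to autophagy, was at 79.6, 84.8 and 78.9 cpm with GFOGER and at 71.4, 63.9 and 79.8 cpm with IKVAV. HSPB1, the small heat shock protein HSP27, was at 735, 811 and 662 cpm with GFOGER and at 656, 644 and 748 cpm with IKVAV. For BAG3, HSPB1 and HSPE1, IKVAV replicates 1 and 2 were the lowest of the T47D libraries, as they were for 17.5% of all genes fitted. Fitted log2 fold changes were -0.056 for HSPH1, -0.040 for HSPA4L, 0.021 for HSP90AA1, 0.16 for BAG3, 0.090 for HSPB1 and 0.35 (SE 0.257) for HSPE1. In all, 6 of the 10 had a log2 fold change below 0, and so did 50.3% of the genes fitted.

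The split of the IKVAV libraries ran along the sets of RPKM totals, since replicates 1 and 2 are in the high set and replicate 3 and all GFOGER libraries are in the low set. HSPA8, HSPA1A, HSPA1B and DNAJB1 were higher in both high-set libraries than in every low-set library, as were 13% of the 13642 genes. Among the 4 low-set libraries alone, the log2 fold changes were -0.20 for HSPA8, 0.041 for HSPA1A, 0.53 for HSPA1B and -0.11 for DNAJB1. These values set the GFOGER libraries against IKVAV replicate 3 alone, so the spread between IKVAV libraries is not measured in them. Within MDA-MB-231 with IKVAV, the high-set library stood at 1.03 times the low-set library for HSPA8, 1.27 times for HSPA1A, 1.06 times for HSPA1B and 0.997 times for DNAJB1. The MDA-MB-231 comparison has 1 library on each side. What the totals reflect is not stated, and their part in the T47D values was not tested.

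**Figure D2:**
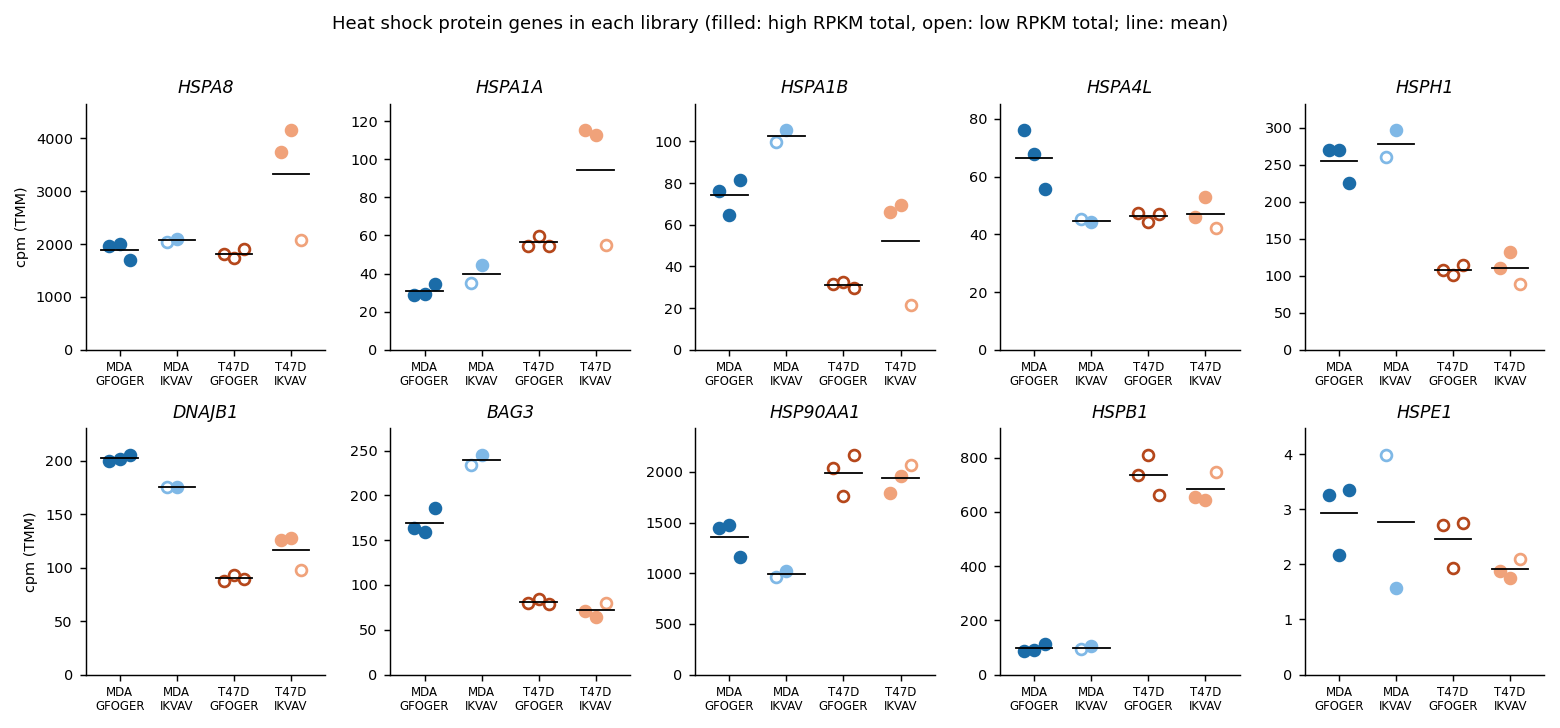
Level of each of the 10 genes in cpm (TMM) in every library, grouped by condition, with a line at the mean and the axis from 0; filled points are libraries of the high set of RPKM totals and open points of the low set. In T47D with IKVAV the 2 filled points for HSPA8, at 3748 and 4155 cpm, stood apart from the open point at 2084 cpm, and HSPA1A and HSPA1B had the same arrangement.

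Genes of the immediate early response, which cells switch on within minutes of many stimuli, moved in part with the same libraries. FOS, a subunit of the transcription factor AP-1, was at 19.2, 34.8 and 24.9 cpm in T47D with GFOGER and at 59.0, 73.7 and 24.1 cpm with IKVAV. FOS, FOSB, JUNB, IER3, DUSP1 and ZFP36 were higher in IKVAV replicates 1 and 2 than in every other T47D library, 6 of the 11 genes of the list. Other genes of the list were arranged differently, with replicate 3 at 1.84 times the GFOGER mean for ATF3 (replicates 1 and 2 at 1.06 times) and at 1.39 times for JUND (0.968 times), and FOSB was also at 2.06 times that mean in replicate 3. The summed level of the 11 was 476 to 535 cpm with GFOGER and 535 to 630 cpm with IKVAV, and their part in the HSP70 values was not tested. Of 32 other cytosolic chaperones and co-chaperones, 5 (15.6%, against 13% of all genes) were higher in both high-set libraries and 8 (25%, against 17.5%) were lower in both. The 5 were DNAJA1, DNAJB4, DNAJB5, CHORDC1 and BAG4. None of the 14 subunits of the chaperonin TRiC and prefoldin or the 11 mitochondrial chaperones and proteases was higher in both. The same held for the 18 chaperones of the endoplasmic reticulum and the 4 genes of heat shock factors and HSBP1. Lower in both were 6 of the 14 (42.9%) and 6 of the 11 (54.5%), against 17.5% of all genes. In the last 2 lists, 4 of the 18 (22.2%) and 1 of the 4 (25%) were lower in both.

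**Figure D3:**
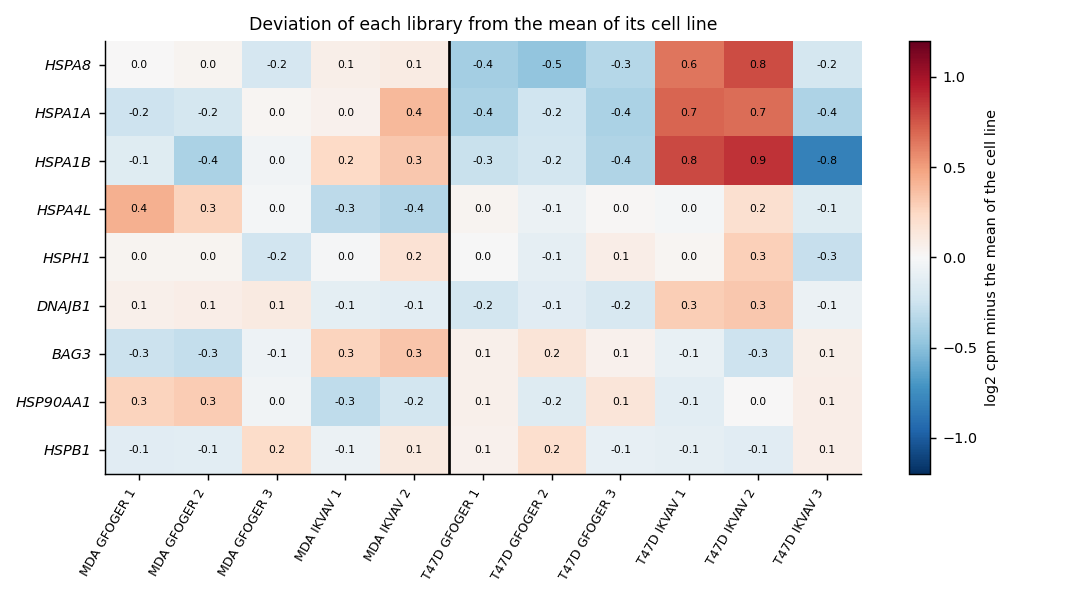
Log2 cpm of 9 genes in each library minus the mean of its cell line, with red for above and blue for below that mean; HSPE1, with the fewest counts, is left out. T47D IKVAV replicates 1 and 2 were 0.64 and 0.79 above the line mean for HSPA8, 0.70 and 0.67 for HSPA1A and 0.80 and 0.86 for HSPA1B, while BAG3 lay below its mean in both.

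Over all 11 libraries, HSPA1A was the gene most like HSPA8. Likeness was the root mean square difference of log2 cpm after centring each gene on the mean of its cell line, over the 8359 genes that averaged 4 or more log2 cpm, and smaller is more alike. The difference was 0.179 for HSPA1A, 0.192 for both MDN1 and LRIF1, 0.204 for NFAT5 and 0.205 for LPP, and the median gene was at 0.435. DNAJB1 ranked 41st and HSPA1B 71st, while HSP90AA1 ranked 5172nd, HSPB1 6063rd and BAG3 6949th. The T47D values that chose HSPA8 are part of this measure, so the ranks are a description.

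In MDA-MB-231 cells, 5 of the 10 genes changed between the peptides, with HSP90AA1 and HSPA4L higher with GFOGER and HSPA1A, HSPA1B and BAG3 lower. All 5 changes were under 2-fold. A gene was counted as changed with an adjusted p below 0.05 in the quasi-likelihood test of edgeR, adjusted by Benjamini-Hochberg over 14092 genes, and such values are written as edgeR adjusted p. Of all genes tested 42.8% changed, 21.4% higher and 21.4% lower with GFOGER, so that 5 of 10 was near the background, and 9.57% changed over 2-fold. The rule that chose the genes names no value of this contrast, although earlier results of these data were known. Of the 6 markers of other cell types, 4 were tested here, and PDGFRB (-1.29), PECAM1 (-0.70) and COL1A1 (-0.54) fell and CD68 (0.61) rose with GFOGER, at edgeR adjusted p = 0.000118, 0.00182, 0.0149 and 0.000456. The summed level of the 6 was 367 to 482 cpm with GFOGER and 290.5 to 295 cpm with IKVAV, and the part of these markers in the changes of the chaperones was not tested.

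HSP90AA1 was at 1442, 1477 and 1157 cpm with GFOGER and at 965 and 1023 cpm with IKVAV. Its log2 fold change was 0.44 (SE 0.101, edgeR adjusted p = 0.00232). HSPA4L was at 76.1, 67.9 and 55.8 cpm with GFOGER and at 45.4 and 44.2 cpm with IKVAV. Its log2 fold change was 0.56 (SE 0.128, edgeR adjusted p = 0.00209), the largest rise of the 10. For both genes every library with GFOGER was above both with IKVAV, and GFOGER replicate 3 was the lowest of its group.

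BAG3 was at 163, 159 and 186 cpm with GFOGER and at 234 and 245 cpm with IKVAV. It was lower with GFOGER, with a log2 fold change of -0.51 (SE 0.0954, edgeR adjusted p = 0.000465), that is 1.42-fold. HSPA1B was at 76.1, 64.9 and 81.7 cpm with GFOGER and at 99.8 and 106 cpm with IKVAV, with a log2 fold change of -0.48 (SE 0.110, edgeR adjusted p = 0.00241). HSPA1A was at 28.6, 29.5 and 34.5 cpm with GFOGER and at 35.3 and 44.6 cpm with IKVAV, with a log2 fold change of -0.38 (SE 0.135, edgeR adjusted p = 0.0317). The highest GFOGER library and the lowest IKVAV library of HSPA1A were less than 1 cpm apart. Counted as 1 gene, the HSPA1 copies had a log2 fold change of -0.45 (SE 0.105, edgeR adjusted p = 0.00263). Their summed level was 105, 94.4 and 116 cpm with GFOGER and 135 and 150 cpm with IKVAV. The HSPA1A call was lost without IKVAV replicate 2 (log2 fold change -0.20, edgeR adjusted p = 0.446), without GFOGER replicate 1 (adjusted p = 0.109) and without GFOGER replicate 2 (adjusted p = 0.0609), and that of HSPA1B without IKVAV replicate 2 (adjusted p = 0.0587). With all 4 conditions in one fit, where the spread also comes from the T47D libraries, both copies missed the threshold, at edgeR adjusted p = 0.249 for HSPA1A and 0.348 for HSPA1B. The call of HSP90AA1 was lost without IKVAV replicate 1 and with the set of RPKM totals as a term. Its log2 fold change was 0.40 in both, near the 0.44 of the full comparison. IKVAV replicate 1 is the only low-set library of MDA-MB-231, so the term takes up that library and both are near the same comparison. Each rests on a single IKVAV library. HSPA4L and BAG3 passed in all 15 alternatives.

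The other 5 genes did not pass the test in MDA-MB-231. HSPA8 was at 1967, 1995 and 1696 cpm with GFOGER and at 2047 and 2099.95 cpm with IKVAV, with a log2 fold change of -0.15 (SE 0.0876, edgeR adjusted p = 0.190). Without GFOGER replicate 3 it was -0.081 and passed (edgeR adjusted p = 0.0437). In that fit 8021 of all 13939 genes tested passed, against 6026 of 14092 in the full comparison. DNAJB1 was at 200, 202 and 206 cpm with GFOGER and at 176 and 175 cpm with IKVAV, with a log2 fold change of 0.20 (SE 0.0881, edgeR adjusted p = 0.0825), which passed without GFOGER replicate 3 (0.18, adjusted p = 0.00167). The libraries of both genes did not overlap between the peptides, which was so for 7 of the 10 genes and for 63% of all genes tested. HSPH1 was at 270.3, 270.1 and 225 cpm with GFOGER and at 260.3 and 297 cpm with IKVAV, and HSPB1 was at 88.6, 89.1 and 113 cpm with GFOGER and at 92.7 and 106 cpm with IKVAV. The log2 fold changes of HSPH1, -0.14, and HSPB1, -0.043, had edgeR adjusted p = 0.289 and 0.803. HSPH1 was at -0.059 without GFOGER replicate 3, -0.23 without IKVAV replicate 1 and -0.038 without IKVAV replicate 2, and passed in none of these. HSPB1 was at -0.18 without GFOGER replicate 3 and then passed (edgeR adjusted p = 0.0200). HSPE1, at 1.56 to 3.99 cpm, gave a log2 fold change of 0.083 (SE 0.350, edgeR adjusted p = 0.872), with the widest error of the 10 genes.

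**Figure D4:**
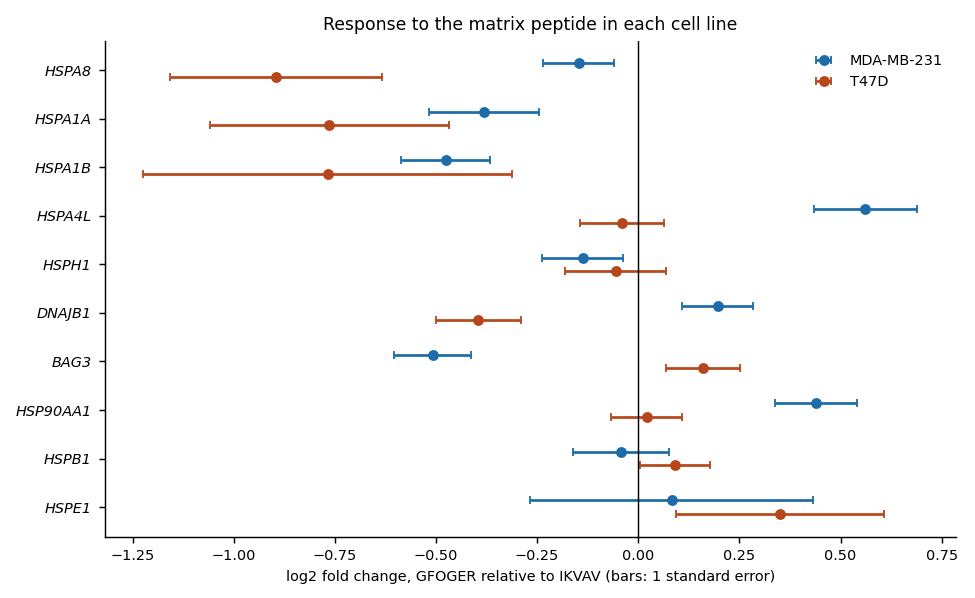
Log2 fold change of GFOGER relative to IKVAV for each of the 10 genes in MDA-MB-231 (blue) and T47D (orange), with bars of 1 standard error. HSPA8, HSPA1A and HSPA1B lay below 0 in both lines, with wide bars in T47D, and DNAJB1 and BAG3 lay on opposite sides of 0 in the lines.

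The T47D values were placed beside those of MDA-MB-231 without a test, since T47D took part in the choice. HSPA8 had -0.15 in MDA-MB-231 and -0.89 in T47D, HSPA1A -0.38 and -0.76, and HSPA1B -0.48 and -0.77. DNAJB1 had 0.20 and -0.40, and BAG3 had -0.51 and 0.16. HSP90AA1 had 0.44 and 0.021, and HSPA4L had 0.56 and -0.040.

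Other chaperones were compared in MDA-MB-231 by lists of their compartments, where 21.4% of all genes rose and 21.4% fell with GFOGER. Of the 14 subunits of TRiC and prefoldin, the ring and the cofactor that fold actin and tubulin, 13 rose with GFOGER, 0 fell and 1 did not pass, with a median log2 fold change of 0.54 against 0.0039 for all genes. CCT8 had 0.77 (edgeR adjusted p = 2.64e-05), CCT4 0.70 (adjusted p = 9.08e-05) and CCT5 0.67 (adjusted p = 2.03e-05). In T47D the same list had a median of 0.032 and log2 fold changes from -0.11 to 0.092. Of the 11 mitochondrial chaperones and proteases, 7 rose and 0 fell, with a median of 0.53. GRPEL2, an exchange factor of mitochondrial HSP70, had 0.89 (edgeR adjusted p = 0.000105), TRAP1, the mitochondrial HSP90, 0.82 (adjusted p = 3.45e-05) and HSPA9, the mitochondrial HSP70, 0.59 (adjusted p = 0.000103). HSPD1, the partner of HSPE1, rose by 0.36 (edgeR adjusted p = 0.00832), and HSPE1 itself had 0.083 with an SE of 0.350.

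Of 29 other cytosolic chaperones and co-chaperones tested of 36 listed, 12 rose, 2 fell and 15 did not pass, with a median of 0.25. Among all genes, 21.4% rose and 21.4% fell. HSP90AB1, the constitutive partner of HSP90AA1, rose by 0.46 (edgeR adjusted p = 0.000489), close to the 0.44 of HSP90AA1. HSPB8, a small heat shock protein that works with BAG3, rose by 0.64 (edgeR adjusted p = 0.00727), and HSPA14, an HSP70 bound to the ribosome, by 0.62 (adjusted p = 0.00206). BAG1, another exchange factor of HSP70, fell, with -0.88 (edgeR adjusted p = 5.39e-06), in the same direction as BAG3. Other BAG genes of the list went differently. BAG2 rose by 0.41 (edgeR adjusted p = 0.0149) and BAG5 by 0.31 (adjusted p = 0.0217), and BAG4, at -0.18, did not pass (adjusted p = 0.257). Of the 18 chaperones of the endoplasmic reticulum, 0 rose and 5 fell, where 21.4% of all genes fell, with a median of -0.037. DNAJB9 had -0.50 (edgeR adjusted p = 0.00290), P4HB -0.50 (adjusted p = 0.000239) and HSP90B1 -0.30 (adjusted p = 0.0254), and HSPA5, the HSP70 of that compartment, had 0.029 (adjusted p = 0.812). The 10 heat shock proteins, with a median of -0.090, had changes in both directions.

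Among the regulators, HSF1 was at 90.1, 89.8 and 116 cpm with GFOGER and at 76.4 and 79.2 cpm with IKVAV in MDA-MB-231, a log2 fold change of 0.33 (SE 0.120, edgeR adjusted p = 0.0345). HSF2 (-0.11), HSF4 (-0.39) and HSBP1 (0.068), an inhibitor of HSF1, did not pass, at edgeR adjusted p = 0.554, 0.126 and 0.656. Of the 11 immediate early genes, 0 rose and 5 fell in MDA-MB-231, where 21.4% of all genes rose and 21.4% fell, with a median of -0.26. ZFP36 had -1.31 (edgeR adjusted p = 2.39e-06), FOSB -0.92 (adjusted p = 0.000221) and FOS -0.84 (adjusted p = 0.000119), so that these genes were lower in the same condition as HSPA1A, HSPA1B and BAG3. Their part in the values of these 3 genes was not tested.

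**Figure D5:**
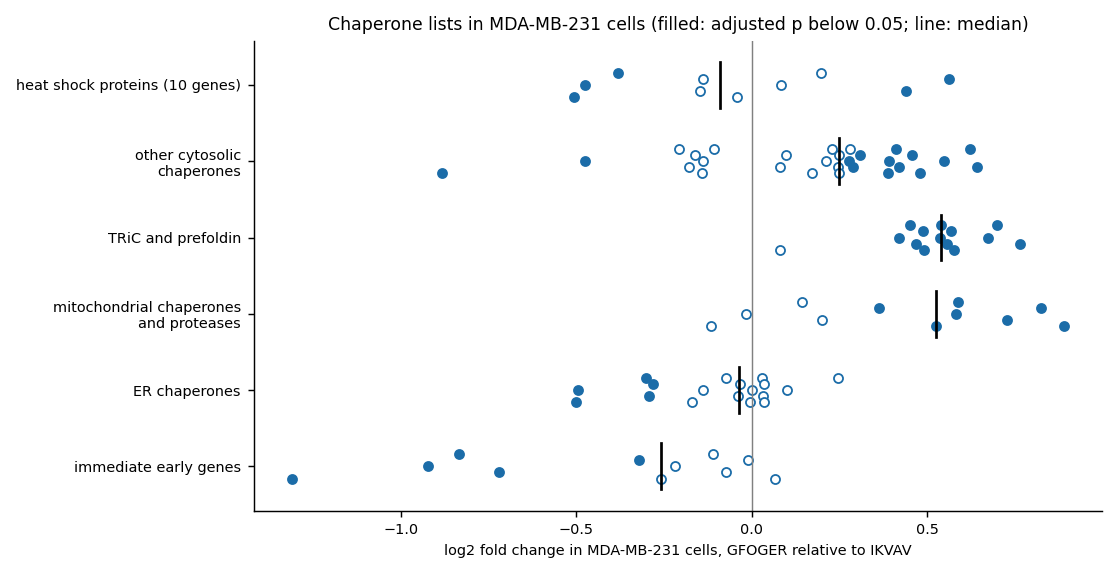
Log2 fold change in MDA-MB-231 of GFOGER relative to IKVAV for each gene tested in 6 lists, with filled points for an adjusted p below 0.05 and a line at the median of the list. The heat shock proteins fell on both sides of 0, 13 of 14 TRiC and prefoldin genes were filled and above 0, and the 5 filled ER chaperones were below 0.

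Between the cell lines with GFOGER, 8 of the 10 genes differed, 5 higher and 3 lower in MDA-MB-231, and 5 of them over 2-fold. All 4 conditions were in this fit of 15320 genes, of which 79.6% differed, 40.1% higher and 39.5% lower in MDA-MB-231, and 46.9% differed over 2-fold. A count of 8 of 10 was therefore near the background. All MDA-MB-231 libraries with GFOGER are in the high set of RPKM totals and all T47D libraries with GFOGER are in the low set, so that line and set cannot be told apart within these libraries.

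HSPB1 differed most. It was at 88.6 to 113 cpm in MDA-MB-231 and at 662 to 811 cpm in T47D with GFOGER, 7.47-fold lower in MDA-MB-231 (log2 difference -2.90, SE 0.108, edgeR adjusted p = 1.45e-15). With IKVAV the difference was -2.78, given without a test. HSP90AA1 was also lower in MDA-MB-231, with a log2 difference of -0.53 (SE 0.0932, edgeR adjusted p = 2.91e-05).

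The exchange factors and DNAJB1 were higher in MDA-MB-231. HSPH1 was at 225 to 270.3 cpm there and at 100.4 to 115 cpm in T47D, a log2 difference of 1.26 (SE 0.117, edgeR adjusted p = 4.20e-09). DNAJB1 was at 200 to 206 cpm against 87.5 to 93.2 cpm, a log2 difference of 1.19 (SE 0.0951, edgeR adjusted p = 4.32e-10). BAG3 was at 159 to 186 cpm against 78.9 to 84.8 cpm, a log2 difference of 1.08 (SE 0.0909, edgeR adjusted p = 8.93e-10). HSPA4L differed by 0.54 (SE 0.112, edgeR adjusted p = 0.000183). With IKVAV, given without a test, the differences were 1.33 for HSPH1, 0.59 for DNAJB1, 1.74 for BAG3 and -0.067 for HSPA4L.

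The HSPA1 copies differed in opposite directions. HSPA1B was higher in MDA-MB-231 by 1.27 (SE 0.346, edgeR adjusted p = 0.00664) and HSPA1A was lower, at -0.85 (SE 0.218, adjusted p = 0.00246). HSPA1A took 26.1% to 31.2% of the reads of the pair in the MDA-MB-231 libraries and 61.9% to 71.6% in the T47D libraries, with either peptide. Counted as 1 gene the pair differed by 0.28 (SE 0.275, edgeR adjusted p = 0.362). The spread in that fit also comes from the T47D IKVAV libraries, which were split for both copies. With GFOGER the summed level of the pair was 94.4 to 116 cpm in MDA-MB-231 and 84.0 to 92.5 cpm in T47D. With the set of RPKM totals as a term, the difference of HSPA1B was 0.37. That term is estimated from the IKVAV libraries of both lines, including the split T47D libraries, so no test is read from it. How reads that fit both copies were counted is not known, and its part in these shares was not tested.

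HSPA8 and HSPE1 did not pass between the lines with GFOGER. HSPA8 was at 1886 ± 165 cpm (SD, n = 3) in MDA-MB-231 and at 1818 ± 82.8 cpm (SD, n = 3) in T47D. Its log2 difference was 0.071 (SE 0.186, edgeR adjusted p = 0.737), in a fit whose spread also comes from the split T47D IKVAV libraries. The sign turned with other scalings, to -0.027 with upper-quartile normalization and -0.025 with library size alone. With the set of RPKM totals as a term the difference was -0.48. That term is estimated from the IKVAV libraries of both lines. They include the T47D values that chose HSPA8, so no test is read here. HSPE1 had a log2 difference of 0.27 (SE 0.299, edgeR adjusted p = 0.410). Bulk levels do not tell a different number of expressing cells from a different amount of RNA per cell.

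The share of HSPA8 in the summed cpm of the 10 genes restates its own levels, on which it was chosen in T47D, and is given as a description. It was 45.1% to 45.8% in MDA-MB-231 with GFOGER and 50.7% and 51.7% with IKVAV. In T47D it was 36.3% to 36.9% with GFOGER, and 55.7%, 56.8% and 39.4% in IKVAV replicates 1, 2 and 3. The sum itself was 3758 to 4357 cpm over the MDA-MB-231 libraries, 4727 to 5152 cpm in T47D with GFOGER and 6732, 7319 and 5283 cpm in T47D with IKVAV.

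Of the regulators, HSF2 was higher in MDA-MB-231 with GFOGER by 0.97 (edgeR adjusted p = 1.48e-06), and HSF4 and HSBP1 were lower, at -2.31 (adjusted p = 1.46e-10) and -1.43 (adjusted p = 5.21e-11). HSF1 had 0.11 (edgeR adjusted p = 0.363), with libraries that overlapped between the lines. Of the paralogs, HSP90AB1 was higher in MDA-MB-231 by 0.46 (edgeR adjusted p = 7.06e-06), opposite to HSP90AA1, while HSPD1 had -0.36 (adjusted p = 0.000589) and HSPA5 -0.26 (adjusted p = 0.00221). Of 14 TRiC and prefoldin genes 5 were higher and 4 lower, and of 11 mitochondrial genes 5 were higher and 5 lower. Neither list thus differed in 1 direction between the lines with GFOGER. With IKVAV, given without a test, the TRiC and prefoldin differences ran from -1.24 for CCT2 to 0.59 for PFDN4, and HSP90AB1 had -0.11.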

How the data were processed

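RNA of MDA-MB-231 and T47D cells in GFOGER or IKVAV matrices was sequenced as poly(A) libraries. The submitters' processing notes name FastQC, Trim Galore 0.4.4, TopHat2 2.1.0, SAMtools 1.4, bedtools 2.17, HTSeq 0.6.1p1, edgeR 3.16.5 and hg19. How the counting treated strand, and its gene annotation, are not given in the sources used here. The deposited table holds read counts per gene, not normalized, and RPKM values that the authors computed from the counts and a gene length. Counts gave all results, and the RPKM values gave only the implied library totals. Of 24656 entries, 1288 that repeat a symbol were left out (4 of them had a count), keeping the entry with the most counts. Gene lengths and hg19 positions are those of the table, and 0 columns of samples were left unmapped. Depth was 14338238 to 18452145 reads per library.

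R 4.3.3 with edgeR 4.0.16 was used (TMM, filterByExpr, glmQLFit with robust estimation, glmQLFTest, Benjamini-Hochberg adjustment over all genes tested). The peptides were compared by a fit within each line, and the lines by a fit of all 4 conditions. Each SE was derived from the test, as the absolute log2 fold change divided by the square root of its F statistic. The scripts were tested on simulated data. DESeq2 1.42.0, other scalings and filters, a replicate block, the set of RPKM totals as a term and leaving out each library were alternatives. Fits without robust estimation, with the HSPA1 copies as 1 gene and on the low-set T47D libraries alone were added after seeing the data. The 10 genes, the gene lists and the tests were chosen with earlier results of these data known. Genes outside the 10 were named by rule: heat shock factors with HSBP1, paralogs and overlapping genes, up to 3 changed genes per list in MDA-MB-231 by size of change (average log2 cpm of at least 2), the 5 most like HSPA8, and cell line markers. The immediate early genes and co-chaperones listed for the high-set T47D libraries were named after their values were seen. So were BAG2, BAG4 and BAG5 in MDA-MB-231.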

Additional observations from a re-analysis of the deposited data

Results flagged for a closer look

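The log2 fold change of DNAJB1, GFOGER relative to IKVAV, was 0.20 in MDA-MB-231, where it did not pass edgeR's test (adjusted p = 0.0825), and -0.40 in T47D, where it was not tested. Every MDA-MB-231 library with GFOGER was above both with IKVAV, and every T47D library with GFOGER was below each with IKVAV. The difference between the lines was not tested, since the T47D libraries took part in the choice of the genes.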

How the results depend on the processing

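In MDA-MB-231, 5 genes changed. The count was 4 or 5 under DESeq2, other scalings, other filters, the HSPA1 copies as 1 gene and a fit without robust estimation. In these fits 5641 of 14092 (DESeq2) to 6298 of 18845 genes (no filter) passed, against 6026 of 14092 in the main fit. The set of RPKM totals as a term takes up IKVAV replicate 1, the only low-set MDA-MB-231 library, so no count is read from it. The count was 3 with all 4 conditions in one fit, where 6098 of 15320 genes passed. With a fold change over 2 required it was 0, against 1349 of 14092 genes. It was 8 with the replicate block and 8 without GFOGER replicate 3, where 8095 of 14092 and 8021 of 13939 genes passed. The count over all genes thus rose in both as well. Without IKVAV replicate 2 the count of members fell, but that fit has a single IKVAV library and no count is read from it. The replicate numbers did not pair the libraries, with correlations of deviations from -0.0594 to 0.0165, and the block left the cell line count at 8 and the HSPA8 value in T47D at -0.83. In MDA-MB-231 only a GFOGER library is numbered 3, so the block takes up that library and is near the same fit as leaving it out. HSPA8, DNAJB1 and HSPB1 passed in both. The estimated coefficient of variation between libraries was 0.0457 with the block and 0.0489 without GFOGER replicate 3, against 0.0933 in the main fit. The cell line count of 8 was 5 with a fold change over 2 required, which 7183 of 15320 genes met. It was 6 with the HSPA1 copies as 1 gene, where 12188 of 15319 genes passed. It was 9 with the set as a term (HSPA8 and HSPE1 passed and HSPA1B did not), and 8 to 8 when each library was left out. With the set as a term 10869 of 15320 genes passed, against 12190 of 15320 in the main fit. The set term draws on the T47D IKVAV libraries, whose values chose HSPA8 and which were split for HSPA1B too. Nothing is therefore read from the pass of HSPA8 or the loss of HSPA1B.

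HSPA8 in T47D, -0.89, was -0.19 with the set of RPKM totals as a term and -0.20 in the low-set libraries alone. In T47D the high set is IKVAV replicates 1 and 2, so both values compare GFOGER with IKVAV replicate 3 alone. When each library was left out, HSPA8 was at -1.15 to -0.70. The 6 genes below 0 in T47D were 4 to 7 over the libraries left out. With the set as a term, and so with IKVAV replicate 3 alone, signs in T47D turned for HSPA1A (0.046), HSPA1B (0.53), HSPH1 (0.28) and HSPA4L (0.15). They also turned for HSP90AA1 (-0.047) and HSPB1 (-0.018). Signs turned in MDA-MB-231 for HSPB1 without GFOGER replicate 1 (0.023), GFOGER replicate 2 (0.016) or IKVAV replicate 2 (0.059), and for HSPE1 without GFOGER replicate 3 (-0.029) or IKVAV replicate 2 (-0.45). The ranges over the libraries left out were -0.18 to 0.059 for HSPB1 and -0.45 to 0.90 for HSPE1. HSPA8 between the lines turned to -0.027 with upper-quartile normalization, -0.025 with library size alone and to -0.48 with the set as a term. The causes were not tested. With 2 libraries for MDA-MB-231 with IKVAV, leaving out 1 leaves a single library that is assumed to vary like the others. HSPE1 had 26 to 62 counts, and its errors are wide.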
